A study of Drosophila melanogaster with 3 samples.

Results

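The germline genes examined here are bgcn, bam, orb, vas, nos, osk, tud, piwi and aub, 9 of 13968 protein-coding genes on the main chromosome arms. They were chosen by name, with earlier results of these data known. They were set against maps of CG18764, a ZAD-type zinc-finger protein, made by chromatin immunoprecipitation and sequencing. Per the labels, the flies carried a transgene encoding CG18764 with GFP at its C terminus, the precipitation used an antibody to GFP, and whole embryos of both sexes were collected at 0 to 16 h. The 3 biological replicates form 1 group, and no control samples were analysed here, so nothing was compared between conditions and no test was run. Germ cells were not separated from the rest of the embryo, so the lists do not say in which cells a site was bound, and the labels used here do not give the insertion site of the transgene or the promoter that drives it.

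In Drosophila, the oocyte is loaded with germ plasm, a store of RNAs and proteins at its posterior pole that sets aside the germ cells of the next generation. Osk assembles it, Vas and Tud are among its components, and the nos mRNA is translated there. In the adult gonad, Bam and its partner Bgcn move the daughters of germline stem cells into differentiation, while the Argonaute proteins Piwi and Aub use small RNAs, the piRNAs, to silence transposons. All 9 genes are known mainly from their roles in the gonads and in early germ cells.

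Each site is a summit, the position of highest enrichment in a peak, ranked by the authors' signal value within its list (rank 1 is the strongest). The optimal list holds 3754 peaks and passed the authors' threshold on reproducibility. It is the top of a pooled relaxed list of 30000 peaks, which also holds background, and each replicate has a relaxed list of 30000 of its own. A promoter summit lies within 500 bp of a transcription start site (TSS) of the gene, and the wider window is the gene with 2 kb on each side.

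The sequences shown are the bases within 50 bp of the summits at orb and piwi that reached the optimal list, plus the strongest relaxed summits near vas and bam for contrast. They are read on the strand of the gene, 5′ to 3′, from the dm6 build. They span chr3R:23281057-23281157 for orb (minus strand), chr2L:10987706-10987806, chr2L:10986334-10986434 and chr2L:10989259-10989359 for the promoter, intron and upstream summits of piwi (minus strand), chr2L:15061481-15061581 for vas (plus strand) and chr3R:25245680-25245780 for bam (minus strand). Capitals mark matches on either strand to any of the 11 motifs searched.
orb promoter: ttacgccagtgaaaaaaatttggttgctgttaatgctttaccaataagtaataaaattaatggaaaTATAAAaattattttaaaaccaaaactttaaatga
piwi promoter: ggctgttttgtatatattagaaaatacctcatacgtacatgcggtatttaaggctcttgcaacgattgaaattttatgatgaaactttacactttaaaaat
piwi intron: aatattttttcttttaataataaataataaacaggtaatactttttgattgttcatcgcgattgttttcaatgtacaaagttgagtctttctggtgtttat
piwi upstream: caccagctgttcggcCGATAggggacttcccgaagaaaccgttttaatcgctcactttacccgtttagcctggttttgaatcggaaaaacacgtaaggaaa
vas promoter, relaxed: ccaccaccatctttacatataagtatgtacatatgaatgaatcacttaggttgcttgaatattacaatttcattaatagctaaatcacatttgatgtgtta
bam upstream, relaxed: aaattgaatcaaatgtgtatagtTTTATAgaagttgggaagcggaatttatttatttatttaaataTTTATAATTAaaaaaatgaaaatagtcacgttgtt

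The orb window is rich in A and T, with a GC content of 21.78%, and the match in it is TATAAA. The piwi windows differ among themselves: the promoter one had a GC content of 29.7% and the intron one 23.76%, both without a match, and the upstream one 47.52% with CGATA. Over all optimal windows the mean was 33.78% ± 8.873 (SD over 3754 windows), with a middle range from 27.72% to 39.6%. The bgcn (49.5%), nos (46.53%) and tud (34.65%) windows are not printed. Of the members' 7 optimal windows, 3 were above the upper quartile of all windows, 2 were below the lower quartile and 2 lay between.

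The 11 motifs were searched on both strands of each window. Only the TATA box (TATAAA, in the orb window) and the core bound by the insulator protein BEAF-32 (CGATA, in the tud window and the upstream one of piwi) were found in the members' 7 optimal windows. Among all 3754 optimal windows 21.8% held TATAAA and 17.6% held CGATA. The DNA replication-related element, TATCGATA, contains the BEAF-32 core and was present in 2.24% of all optimal windows. The homeodomain core, with the letters TAATTA, was present in 377 of the 3754 windows. A GAGA factor repeat (GAGAG) was found in 9.46% of them and a GATA factor site (AGATAA) in 7.27%. An A- and T-rich word, ATTTAAAA, was found in 6.39% and the initiator, taken as TCAGTT, in 6.23%. The rarest were the E-box CACGTG in 0.826% of windows, the M1BP motif GGTCACACT in 0.666% and the Zelda site CAGGTAG in 0.506%. A match describes the letters of the window and does not identify a bound factor.

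Of the 9 germline genes, 5 had an optimal promoter summit (55.6%), namely bgcn, orb, piwi, tud and nos, against 17.9% of all protein-coding genes. The 9 were chosen with earlier results of these data known, so their share does not describe germline genes at large. Among 72 other germline genes the share was 18.1%. The wider window added none: 5 of 9 held an optimal summit, against 31.6% of all genes. In the pooled relaxed list 8 of 9 had a promoter summit, against 49.1% of all genes, and bam was the exception. All 9 held a relaxed summit in the wider window, against 73.7% of all genes. The count of 5 depends on how far a promoter extends and on the replicates. Within 250 bp, a limit that the orb summit just missed at 251 bp, it was 2, where the share of all genes was 14.4%. Where a match within 100 bp was required among the top peaks of the other 2 replicates, it was 4 without replicate 1, 3 without replicate 2 and 3 without replicate 3, and the shares of all genes were 13.1%, 12.0% and 12.4%.

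The 5 promoter summits fall into a strong set and a weak set. The median of their pooled ranks was 384, while over the 2502 protein-coding genes with an optimal promoter summit the median was 1545, with quartiles at 714.25 and 2597. The strong summits, at bgcn, orb and piwi, all ranked higher than the quartile at 714.25. The weak ones, at tud and nos, ranked lower than the quartile at 2597. In single replicates the ranks of bgcn, orb and piwi ran from 229 to 562, and those of tud and nos from 1662 to 7960. The sets were split by rank in a list pooled from these same replicates, so this separation follows in part from how they were formed.

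**Figure D1:**
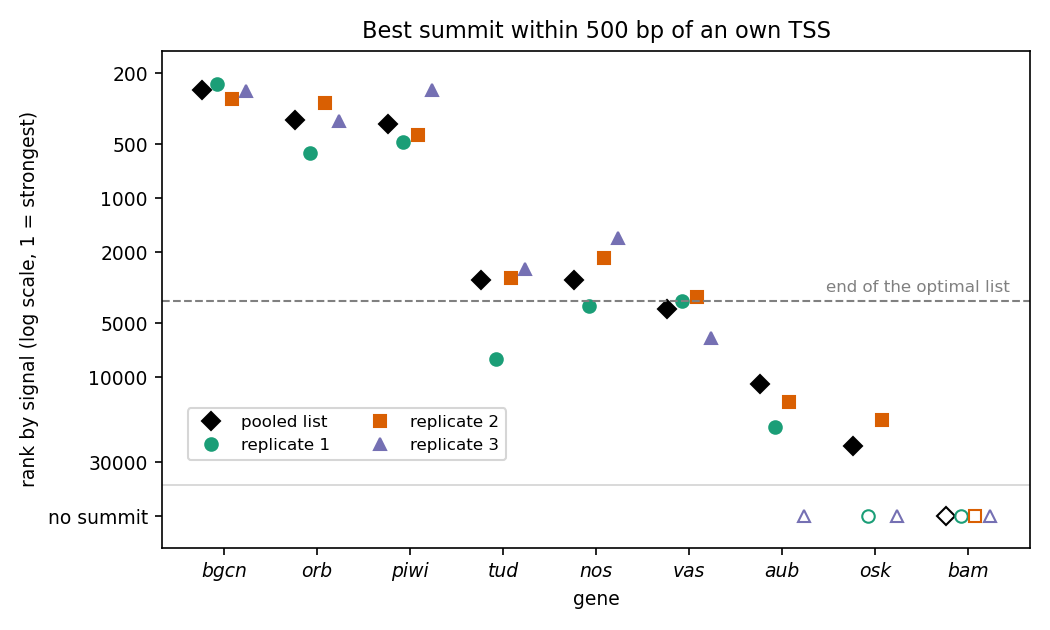
Rank of the best summit within 500 bp of an own TSS for each germline gene (y axis, log scale, 1 is the strongest) in the pooled list (black diamonds) and in the 3 replicates (coloured symbols); open symbols mark lists with no such summit, and the dashed line is the end of the optimal list at rank 3754. The genes bgcn, orb and piwi stay between ranks 229 and 562 in every replicate, tud, nos and vas lie around the dashed line, and aub, osk and bam lack a promoter summit in at least 1 replicate.

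Of the stem cell differentiation genes, bgcn had the strongest promoter summit of the 9 and bam had none. The gene bgcn (FBgn0004581, 2R:23853270 to 23858921, minus strand) encodes a protein related to DExH-box RNA helicases that acts with Bam to repress translation. Its summit ranked 229, 278 and 251 in replicates 1, 2 and 3, with signals of 156.5, 215.6 and 158.8, and 247 in the pooled list with a signal of 524.2. The mean replicate rank was 252.7 ± 24.54 (SD, n = 3), the narrowest spread among the members. The summit lay 138 bp downstream of the TSS in the 5′ UTR of bgcn, and within 4 to 8 bp of that position in each replicate. No other gene has a TSS within 500 bp of it. The nearest is Pym, a gene nested in bgcn on the same strand, whose TSS is 1847 bp away, and bgcn also held a relaxed summit 45 bp upstream of that TSS (pooled rank 8704), found in replicates 2 and 3 at ranks 5851 and 18051.

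The protein-coding genes whose promoter summits had replicate ranks most like those of bgcn were sought among 2078 genes, by the distance between log2 ranks over the 3 replicates. They were nrv1 (ranks 219, 293 and 258; distance 0.1071), which encodes a subunit of the sodium pump, Gnpat (223, 314 and 243; 0.1858), an enzyme of ether lipid synthesis, and CG6966 (238, 321 and 273; 0.2467). This likeness is one of rank alone.

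The gene bam (FBgn0000158, 3R:25243039 to 25245109, minus strand) encodes the factor that starts differentiation of the stem cell daughter. No list held a summit within 500 bp of its TSS. The strongest summit in its wider window lay 621 bp upstream at 3R:25245730, ranked 6880 in the pooled list and 4839 in replicate 2, and was not found in replicates 1 and 3. A further one lay 1136 bp upstream, in the 3′ UTR of RpS27, with a pooled rank of 16080, and was found in replicate 1 alone. The bam locus is next to one of the strong sites of the optimal list, however: a summit of rank 74 at 3R:25247499 lay 2390 bp upstream of bam and 15 bp inside the start of RpS27, a ribosomal protein gene. The summit of rank 2964 beside it lay 46 bp inside the start of Nup37, a nuclear pore gene.

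Among the genes of translation control and the germ plasm, orb had a strong promoter summit, tud and nos had weak ones, vas fell just outside the optimal list and osk was far below it. The gene orb (FBgn0004882, 3R:23260610 to 23280856, minus strand) encodes an RNA-binding protein of the CPEB family that controls the translation of localised mRNAs in the oocyte. Its summit ranked 562, 292 and 371 in replicates 1, 2 and 3, with signals of 103.3, 210.8 and 134.9, a mean rank of 408.3 ± 138.8 (SD, n = 3), and 367 in the pooled list. Every replicate ranked it above all other summits in the orb window. At 3R:23281107 it lay 251 bp upstream of the first TSS of orb but 94 bp upstream of Cdc16, a subunit gene of the anaphase-promoting complex that is transcribed away from orb with 345 bp between the starts. The other 3 annotated starts of orb had no summit within 500 bp in the pooled list. A relaxed summit 710 bp downstream of the first TSS, in an intron, ranked 6830 when pooled and was found in replicate 3 alone, at rank 3238.

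The gene nos is annotated as nanos (FBgn0002962, 3R:19157238 to 19160202, plus strand) and encodes a translational repressor needed for abdominal patterning and in germ cells. Its best promoter summit ranked 4020, 2173 and 1662 in replicates 1, 2 and 3, with signals of 33.11, 77.02 and 61.51, a mean rank of 2618 ± 1240 (SD, n = 3), and 2870 in the pooled list. The position moved between replicates, at 141, 247 and 377 bp upstream of nos in replicates 1, 2 and 3 and 273 bp upstream when pooled. The pooled summit lay in the 5′ UTR of a transcript of CG11779, 52 bp downstream of a start that points away from nos and lies 221 bp from it. CG11779 has other annotated starts too, one of them 2640 bp downstream of the nos start on the opposite strand, so it also overlaps nos. A relaxed summit nearer to nos, 66 bp upstream at 3R:19157172 with a pooled rank of 24195, was found in all 3 replicates (ranks 4020, 16540 and 18880). Its window holds TATCGATA and TATAAA, and its summit in replicate 1 is the same peak that was the best promoter summit there.

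The gene tud (FBgn0003891, 2R:21183322 to 21192913, plus strand) encodes a protein of many Tudor domains that binds methylated Aub. Its promoter summit ranked 7960, 2790 and 2496 in replicates 1, 2 and 3, with signals of 24.52, 65.71 and 49.42, a mean rank of 4415 ± 3073 (SD, n = 3), and 2859 in the pooled list. Replicate 1 stood apart from the other replicates here, and its summit lay 182 bp upstream of the TSS where the pooled one lay 81 bp upstream. The start of tud is next to transfer RNA genes, and tRNA:Gly-GCC-1-13 and tRNA:Trp-CCA-2-6 both have a TSS within 500 bp of the summit, although tud itself is the nearest.

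The gene vas (FBgn0283442, 2L:15061656 to 15074311, plus strand) encodes a DEAD-box RNA helicase of the germ plasm. Its promoter summit, 125 bp upstream of the TSS that it shares with the overlapping gene solo, ranked 3740, 3573 and 6056 in replicates 1, 2 and 3, with signals of 34.49, 56.67 and 28.67, and 4187 in the pooled list. The pooled signal was 111.9, below the lowest of the optimal list, 120.3, and nos was the member just inside that limit with 144.6. The mean replicate rank of vas was 4456 ± 1388, that of tud 4415 ± 3073 and that of nos 2618 ± 1240 (SD, n = 3 each). The wide spread of tud reflects its rank of 7960 in replicate 1. By replicate, vas ranked higher than both tud and nos in replicate 1, and lower than both in replicates 2 and 3. Whether these genes differ in rank was not tested. The vas window of 16656 bp held 7 relaxed summits, the most of any member by count, but at 4.203 per 10 kb it was below piwi (4.34) and nos (4.307). Another lay 6468 bp downstream in an intron, 46 bp upstream of a start of the nested gene vig, which encodes a component of the RNA interference machinery, and was found in all replicates (ranks 6596, 4514 and 4391). The summit 18 bp upstream of TfIIS, a transcription elongation factor gene with its start 899 bp from that of vas on the opposite strand, was found in all replicates too (ranks 15534, 9301 and 9135).

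The gene osk (FBgn0003015, 3R:8935126 to 8938395, plus strand) encodes the organiser of germ plasm. A promoter summit 261 bp upstream ranked 24373 in the pooled list and 17286 in replicate 2, and replicates 1 and 3 had none. The best relaxed summit in its wider window lay beyond the other end of the gene, 69 bp upstream of ScsbetaA, a gene of the citric acid cycle, with ranks of 9530, 19583 and 18656 in replicates 1, 2 and 3. The nearest optimal summit, of rank 2450, was 3111 bp away from osk and 119 bp upstream of pyd, a gene of cell junctions.

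Of the Argonaute genes, piwi had a strong promoter summit and aub had none above rank 10884. The gene piwi (FBgn0004872, 2L:10982205 to 10987420, minus strand) encodes the nuclear Argonaute that silences transposons at the level of chromatin. Its promoter summit at 2L:10987756 ranked 487, 446 and 248 in replicates 1, 2 and 3, with signals of 111.5, 175.5 and 159.6, a mean rank of 393.7 ± 127.8 (SD, n = 3), and 384 in the pooled list. These ranks overlapped those of orb (562, 292 and 371), and the rank in replicate 3 was also close to that of bgcn. The summit lay 336 bp upstream of piwi but 50 bp upstream of CG12253, which is transcribed away from it with 386 bp between the starts.

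The piwi gene was the only member with more than 1 optimal summit in its window. Most of the other germline genes taken up below held at most 1, but brat held 4, Sxl 3, and exu and papi 2 each. Some of those without an optimal promoter summit also held 2 to 4, so this trait is not particular to piwi. The share of all protein-coding genes with more than 1 is not given here. A summit at 2L:10986384, in an intron 1036 bp downstream of the TSS, ranked 2368, 2616 and 1356 in replicates 1, 2 and 3 and 2270 in the pooled list. No other gene has a TSS within 500 bp of it, and the nearest annotated transposon, an INE-1 element, was 299 bp away. A further summit 1889 bp upstream at 2L:10989309 ranked 2744, 3171 and 2346 in the replicates and 3221 when pooled, and lay 92 bp upstream of TTLL4A. All 3 optimal summits of piwi were found within 100 bp among the top peaks of every replicate.

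The gene aub (FBgn0000146, 2L:10997819 to 11001476, minus strand) encodes the cytoplasmic Argonaute of the piRNA amplification cycle. Its best promoter summit was 32 bp upstream of a TSS and ranked 10884 in the pooled list. The ranks in replicates 1 and 2 were 18970 and 13776, at 9 and 224 bp upstream, and replicate 3 had none. The nearest optimal summit, of rank 2475, lay 2699 bp upstream of aub and 14 bp inside the start of RpL9, a ribosomal protein gene.

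**Figure D2:**
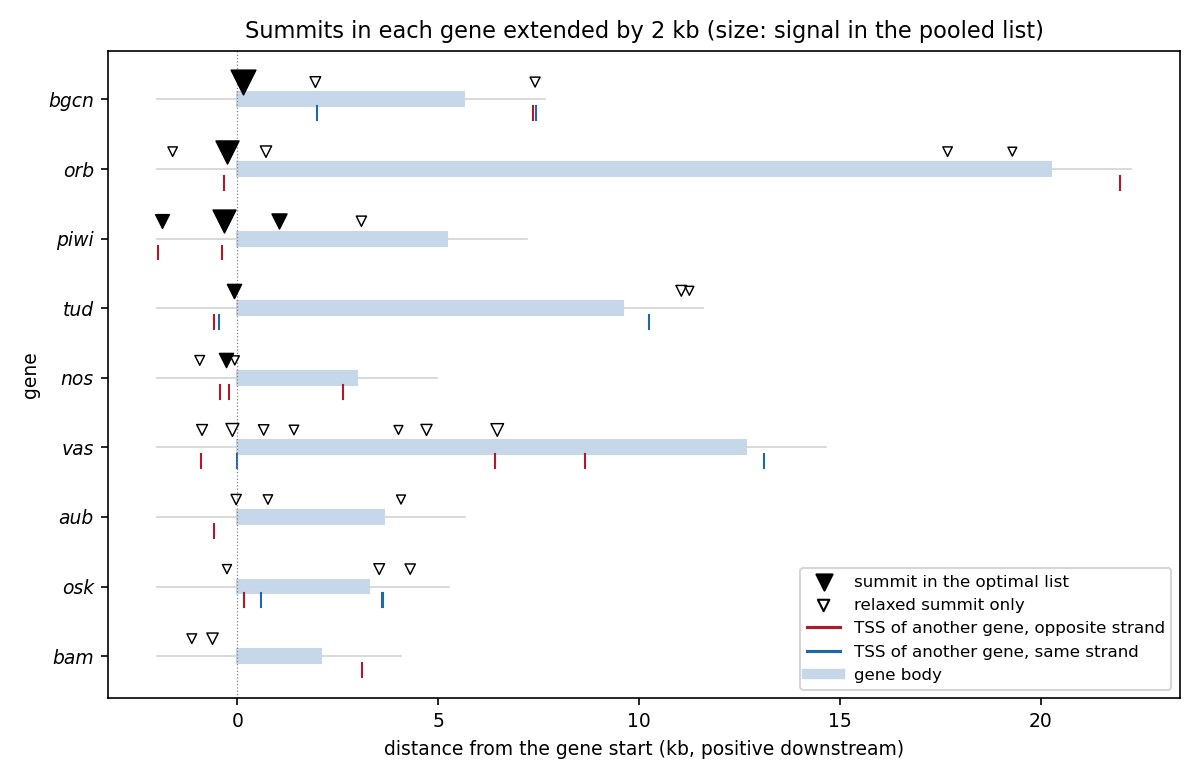
Summits along each germline gene extended by 2 kb (x axis, kb from the gene start, positive downstream; y axis, gene); filled triangles are optimal summits, open triangles relaxed ones only, with size by pooled signal, and ticks under the gene mark TSS of other genes on the opposite (red) and the same (blue) strand. The filled triangles of orb, nos and piwi upstream of the start stand over a red tick, and that of bgcn stands inside the gene with no tick near it.

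In several members the promoter summit was not theirs alone, which also holds for most protein-coding genes with an optimal promoter summit. In 4 of the 5 genes with an optimal promoter summit (orb, piwi, tud and nos) another gene had a TSS within 500 bp of it, against 62.8% of the protein-coding genes with such a summit. In 3 of the 5 (orb, piwi and nos) the TSS of the neighbour was nearer than that of the germline gene, against 30.2%. Within 250 bp the first of these counts was 0, since only bgcn and tud then kept a promoter summit. Of all 9 genes, 6 (orb, nos, vas, tud, piwi and aub) have an opposite-strand TSS at most 1000 bp upstream, against 38.2% of all protein-coding genes.

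The members' optimal promoter summits lay 81 to 336 bp from their own TSS. Of the 5, 3 were over 250 bp away (orb only just, at 251 bp), against 21.4% of the genes with an optimal promoter summit. The summit was upstream in 4 of the 5, with bgcn the exception, against 89.7% of those genes. The median over those genes was 131 bp upstream, with a middle range from 216 to 65.25 bp upstream. Which of the genes at a shared promoter the site acts on, if any, cannot be read from peak positions.

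Replicates held most, but not all, of the promoter summits. A summit within 500 bp of an own TSS was present in all 3 replicates for 6 of the 9 members (bgcn, orb, piwi, tud, nos and vas), against 28.2% of all protein-coding genes. It was present in at least 2 for 7 members, with aub added, against 47.8%, in 1 for osk and in 0 for bam. Among the 3754 highest peaks of each replicate it was present in all 3 for bgcn, orb and piwi, 3 of the 9, against 11.8% of all genes. With tud, nos and vas, which had it in 2, 6 of the 9 had it in at least 2, against 16.9%. With a match within 100 bp of the pooled summit required as well, 3 of the 5 optimal promoter summits were in the top peaks of all 3 replicates, against 61.1% of the genes with such a summit. The others were tud, whose promoter summit in replicate 1 ranked 7960, and nos, which was matched in replicate 2 alone.

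Across the 9 windows, 33 pooled relaxed summits were found, of which 7 were optimal. Within 100 bp, 10 of the 33 were found in all 3 replicates, 9 in 2, 13 in 1 and 1 in none. Of the 26 that were relaxed only, 5 were found in all 3 replicates and 5 lay within 500 bp of an own TSS. Of the 33, 15 had the member's own TSS as the nearest. These counts describe the 9 windows, and no share over all relaxed summits is given beside them. The median member held 3 relaxed summits in its window, against 2 over all protein-coding genes, and 3.917 per 10 kb against 2.155. The median window was 9216 bp for members and 6164.5 bp for all genes.

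**Figure D3:**
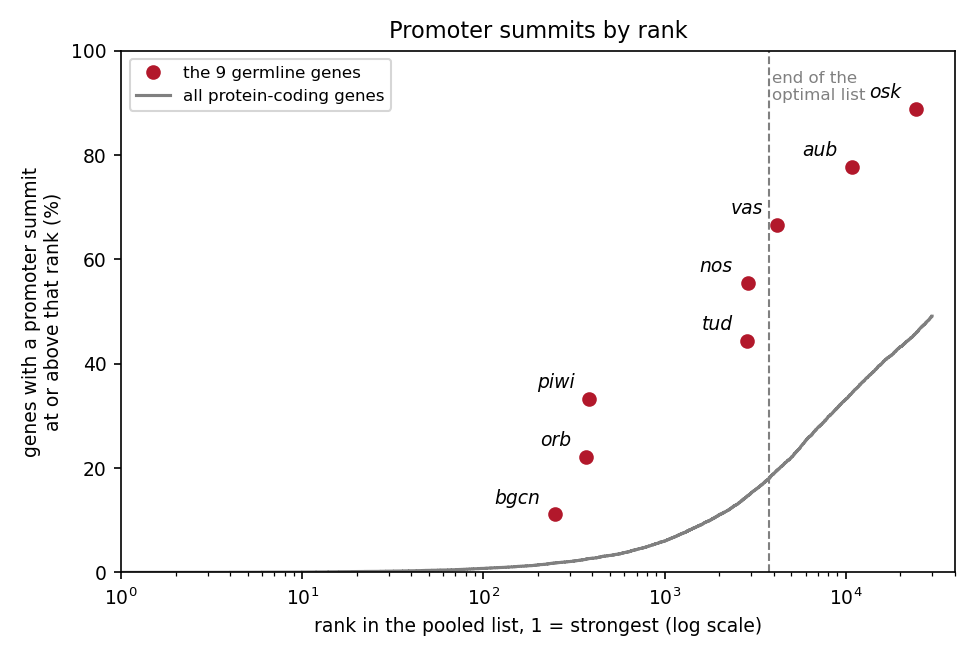
Percentage of genes with a promoter summit at or above a given rank of the pooled list (x axis, log scale) for the 9 germline genes (red points, 1 a gene) and for all protein-coding genes (grey line); the dashed line is rank 3754. At the dashed line the germline genes stand at 55.6% and all genes at 17.9%. The 9 genes were chosen with earlier results of these data known.

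The other genes of the germline were taken from lists of 4 roles with 73 genes, of which 72 matched the annotation. An optimal promoter summit was present at 13 of the 72 (18.1%), close to the 17.9% of all protein-coding genes. A relaxed one was present at 50 of the 72 (69.4%), against 49.1% of all genes. In 8 of the 13 the summit also reached the TSS of another gene, against 62.8% of the protein-coding genes with an optimal promoter summit. The count of 13 was 8 within 250 bp, where the share of all genes was 14.4%. Where a match within 100 bp was required among the top peaks of the other 2 replicates, it was 9, 5 and 6 without replicates 1, 2 and 3. The shares of all genes were then 13.1%, 12.0% and 12.4%.

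The stem cell and differentiation genes had the most, 6 of 14 (42.9%). The best ranked was snf (656; replicate ranks 617, 805 and 484), a splicing protein gene whose summit lay 47 bp upstream and also reached Cdk7. It was followed by Zfrp8 (1104, shared with tamo), the deadenylase gene twin (1643, shared with cav), the sex determination switch Sxl (1912), the ribosome rescue gene pelo (2402) and stwl (2574). Of the genes of germ plasm and mRNA localisation 4 of 19 (21.1%) had one, and all were weak. They were brat (2697, shared with Polr1D), gcl (3039, shared with CG14767), exu (3315, shared with galla-1) and smg (3429).

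Of the piRNA pathway genes 3 of 26 (11.5%) had an optimal promoter summit. The Tudor protein gene papi ranked 282 (replicate ranks 308, 227 and 538), the highest of the 13, and its summit reached no other gene. The gene cuff, which acts at piRNA source loci, ranked 697 (984, 1302 and 427) with a summit shared with CG13185. The helicase gene spn-E ranked 3730 with a summit shared with ND-23. It ranked 6532 and 2797 in replicates 1 and 2 and had no rank in replicate 3. Of the spermatocyte and meiosis genes, 0 of 13 had one. These lists are short, and whether their shares differ was not tested.

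**Figure D4:**
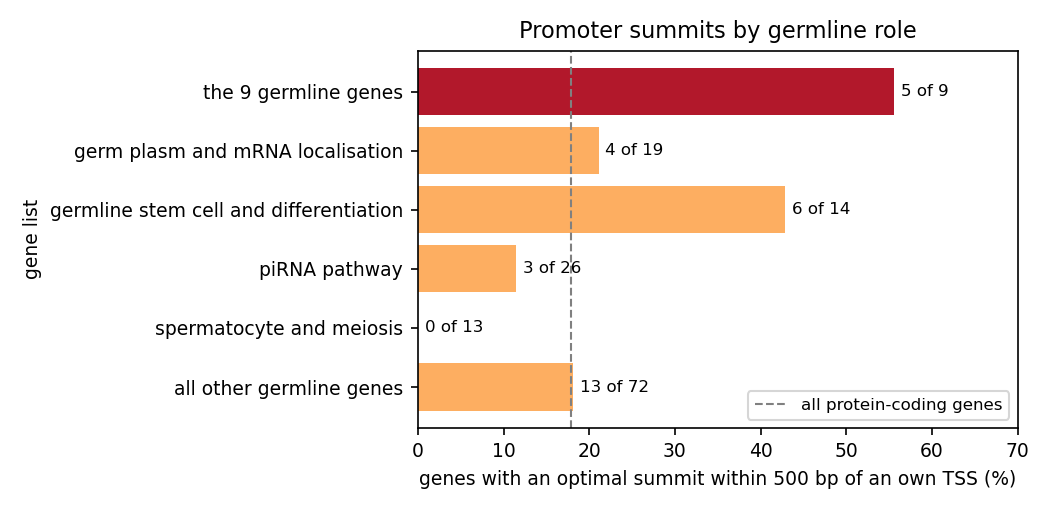
Percentage of genes with an optimal summit within 500 bp of an own TSS (x axis) in the 9 germline genes (red bar) and in other germline genes by role (orange bars), with the counts at the bar ends; the dashed line is all protein-coding genes at 17.9%. The 9 genes stand at 55.6%, the stem cell and differentiation genes at 42.9%, and the other roles between 0.0% and 21.1%.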

How the data were processed

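Peak lists of 3 biological replicates and of their pool were used, on dm6 (assembly release 6). Each peak's signal value is a score with no stated scale, made and deposited by the authors, and was used only to rank peaks within a list. The summit offset in bp, deposited as well, gave each position. Which aligner, peak caller and cut-offs were used is not given in the sources used here. Read depth is unknown, so no interval was computed.

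Positions are 1-based. Gene models came from Ensembl release 115 without transposable elements (18277 genes, 23697 distinct TSS positions), and bases from the matching NCBI RefSeq assembly. All 9 genes had the same start and end in RefSeq. The symbol nos is annotated as nanos, and 1 of 73 other symbols had no single match. Every annotated TSS counted. Distances run to the summit, and replicate summits matched within 100 bp. Shares over all 13968 protein-coding genes were computed in the same way. The genes, lists and motifs were chosen with earlier results of these data known. Every germline gene is named, with neighbours whose TSS lies within 500 bp of a summit or is the nearest; of the other lists, genes with an optimal promoter summit are named. The rule asked for the sequence of every optimal window outside one arm; that of nos is left out because it lies in a 5′ UTR. Counting was tested on simulated peaks. The software was Python 3.11.15, numpy 2.4.6, pandas 2.3.3 and matplotlib 3.10.9.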

Additional observations from a re-analysis of the deposited data

How the results depend on the processing

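Of 48 alternative values, 27 stayed within 1.5 times the reported count and 21 moved beyond it. With a promoter of 250 bp, 2 germline genes had an optimal promoter summit in place of 5, 0 of them shared it in place of 4, and 8 other germline genes had one in place of 13, with 14.4% of all protein-coding genes called. With the stronger 1877 optimal peaks these counts were 3, 2 and 5, with 10.4% of all genes called, and 3 germline genes held an optimal summit in the wider window, against 19.5%. With the whole pooled relaxed list the germline genes came to 8 at promoters and 9 in the wider window, and the others to 50, against 49.1% and 73.7% of all genes at promoters and in the wider window. The wider window gave 2 genes with no extension (9.96% of all genes) and 9 with 5 kb (43.9%) for optimal summits, and 5 with no extension (36.4%) for relaxed ones. With a replicate left out, optimal peaks were kept only where the top peaks of the other 2 held a match within 100 bp. The reported counts of 5, 4 and 13 carried no such requirement. Relaxed peaks were matched likewise, in the whole lists. These settings gave 3 to 4 germline genes with an optimal promoter summit (12.0% to 13.1% of all genes), 2 to 3 that shared it and 5 to 9 other germline genes. In the wider window, 3 to 4 held an optimal summit (22.4% to 24.6% of all genes) and 6 to 7 a relaxed one. The count found in the top peaks of all replicates kept was 3 to 4. No share over all genes is given at these settings for shared summits, for relaxed summits with a replicate left out, or for this last count. Those counts therefore cannot be set against all genes.

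No paired analysis was possible because the replicates form 1 group and no result comes from a test between groups. Optimal peaks are the strongest of a list pooled from the same replicates, so their recovery there follows in part from how the list was built. Read depth is unknown, and a missing relaxed summit does not show that a site was unbound.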
